A study of Drosophila melanogaster with 6 samples.

Results

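Collagen and prolyl 4-hydroxylase genes were followed in Drosophila melanogaster embryos lacking clbn. They are 10 genes of 11982 that the array measured under a single gene symbol: the 8 genes named PH4alpha (SG1, SG2, EFB, MP, PV, NE1, NE2 and NE3) and the collagen IV genes Col4a1 and vkg (viking). Members were selected on their symbol, and the probe set of each was to be chosen by the highest mean value over the 6 arrays. Each of the 10 has 1 probe set, so that choice had no effect. The list was drawn up with earlier results of these arrays known.

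The study set embryos of a clbn knock-out stock (3 arrays) against w1118 embryos, which the labels call wild type (3 arrays). Clbn (Caliban) is the fly counterpart of NEMF, a factor of ribosome-associated quality control. The labels give w1118 as the strain background of both genotypes and do not describe the knock-out allele or any backcross, so loss of clbn and any further difference between these stocks cannot be told apart. All embryos spanned 0 to 24 h of development and came from flies kept at 25 °C, and total RNA of whole embryos was hybridised to Affymetrix arrays.

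Collagen chains are built of repeated triplets with glycine at the first place and often proline at the last. Prolyl 4-hydroxylase acts on that last proline in the endoplasmic reticulum, which stabilises the triple helix before secretion. The enzyme pairs a catalytic alpha subunit, the product of the PH4alpha genes, with protein disulfide isomerase as its beta subunit, and needs iron, oxygen and 2-oxoglutarate. In the fly embryo, collagen IV comes mainly from haemocytes and fat body and is laid down in basement membranes.

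The 6 arrays were close in scale, with a median of 6.17 (log2) in knock-out array 1 and 6.29 to 6.36 in the others. The array medians differed between genotypes by −0.07 log2 on average, knock-out minus w1118. The targeted gene read 5.42, 5.27 and 5.14 in the knock-out arrays, against 7.86, 8.25 and 8.44 in w1118; where its probes lie relative to the deleted part was not analysed here. Knock-out array 1 stood apart in its control probe sets. The mean 3′ minus 5′ difference of actin, eIF-4a and GAPDH was 1.24 there, 0.667 and 0.729 in the other knock-out arrays, and 0.723 to 0.779 in w1118. Of 13 measured genes of a list of embryonic stage markers, all had a mean above 4.33, the first quartile of all probe-set means. No detection calls were used, so values near that quartile cannot be told from background.

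Of the 10 genes, 1 passed the test between genotypes: PH4alphaSG2 rose in the knock-out. The test was limma's moderated test, called at a Benjamini-Hochberg adjusted p below 0.05 over all 18769 probe sets. Across the array 3.56% of probe sets and 4.51% of genes were called, with 1.88% of genes higher and 2.63% lower. At an unadjusted p under 0.05 stood 22.8% of genes, and 44.0% had values below 0, which are the shares to set beside the counts of each list. On chromosome arm 3R, where all 8 hydroxylase genes and clbn lie, 6.59% of genes were called. The members' median log2 difference was 0.05, and that of all genes 0.02. Every knock-out array lay above every w1118 array for 4 members, all hydroxylases, as for 15.7% of genes. Every knock-out array lay below every w1118 array for 3 members, PH4alphaNE1 and both collagens, as for 13.1% of genes.

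**Figure D1:**
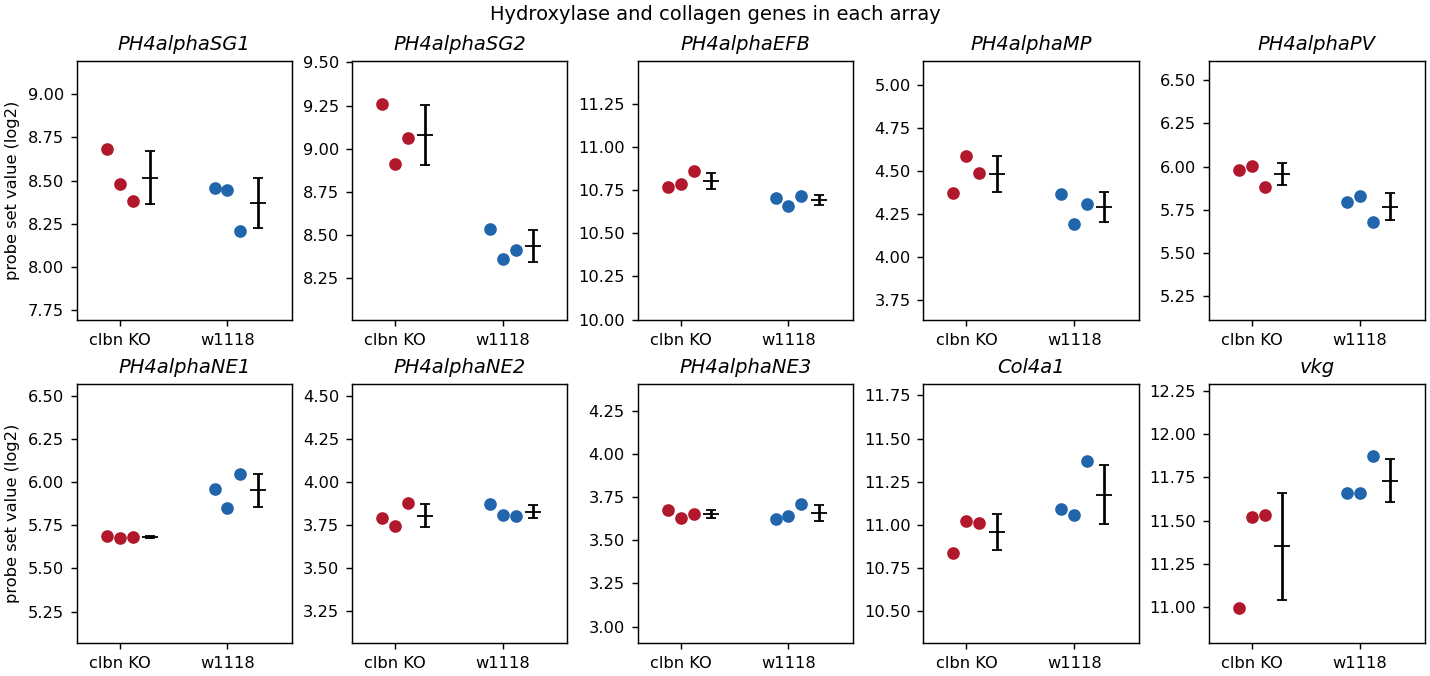
Probe set value (log2) of the 10 genes in each array, knock-out arrays 1 to 3 in red on the left and w1118 arrays 1 to 3 in blue on the right of each panel. Black bars show the mean ± SD of 3 arrays, and every panel spans the same range of log2 units around its own centre; PH4alphaSG2 is the gene whose groups lie farthest apart.

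PH4alphaSG1 and PH4alphaSG2 encode the salivary gland hydroxylases, which are needed for an even, open lumen in the embryonic gland and are known targets of the transcription factors Fork head and Sage. PH4alphaSG2 read 9.26, 8.91 and 9.06 in the knock-out arrays, against 8.54, 8.36 and 8.41 in w1118. The lowest knock-out array was above the highest w1118 array. The means were 9.08 ± 0.17 in the knock-out and 8.44 ± 0.09 in w1118 (SD, n = 3 each), a rise of 1.56-fold (log2 0.64, SE 0.10, limma adjusted p = 0.0185). Among all genes, 139 had a larger increase. In whole embryos, a change in the number of gland cells cannot be told apart from a change in RNA per cell.

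That call was lost when any of 4 arrays was left out. The adjusted p was 0.06 without knock-out array 3, and 0.0631, 0.0557 and 0.0776 without w1118 arrays 1, 2 and 3 in turn. It ranged from 0.00896 to 0.0776 over all alternatives. The log2 difference stayed between 0.53 and 0.73. It was 0.55 (adjusted p = 0.0235) without knock-out array 1, the array with the highest value.

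PH4alphaSG1 read 8.68, 8.48 and 8.38 in the knock-out arrays, against 8.46, 8.45 and 8.21 in w1118. The groups overlapped. Its log2 difference was 0.15 (95% interval −0.10 to 0.40, adjusted p = 0.527), and 0.06 (0.83) without knock-out array 1. Within each array, PH4alphaSG2 minus PH4alphaSG1 was 0.57, 0.43 and 0.68 in the knock-out, against 0.08, −0.09 and 0.21 in w1118 (log2). The pair therefore shifted relative to each other by 0.50 log2, with no overlap between genotypes. The exact 2-sided permutation p was 0.1, the smallest that 3 against 3 arrays allow, and this comparison was chosen after the values were seen.

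The salivary gland is otherwise represented by 15 measured genes of a list of gland and glue genes, of which 0 were called by limma and 0 had an unadjusted p under 0.05, against 22.8% of all genes. Their median log2 difference was 0.01. The list's mean level ran from 7.89 to 7.92 in the knock-out arrays and from 7.86 to 7.91 in w1118. The 2 with the smallest p were CG14756 (log2 0.24, adjusted p = 0.416, and 0.13 without knock-out array 1) and the glue gene Sgs7 (−0.13, adjusted p = 0.438). Sgs3, Sgs4, Sgs5, Sgs7, Sgs8 and ng3 were dim, with means from 4.15 to 4.91, against a first quartile of 4.33. Their flat values therefore say little of the gland. The regulators fkh and sage, named outside the naming rule, differed by −0.19 (adjusted p = 0.591) and 0.09 (0.579). The value of fkh rested on knock-out array 1, and was 0.01 (adjusted p = 0.984) without it.

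PH4alphaEFB encodes the hydroxylase of epidermis and fat body, tissues that include a main source of collagen IV. It read 10.77, 10.78 and 10.86 in the knock-out arrays, against 10.71, 10.66 and 10.72 in w1118. The knock-out arrays were all higher, by a margin that was small but clear of the w1118 arrays. The log2 difference was 0.11 (95% interval −0.05 to 0.27, adjusted p = 0.448), so a difference above 0.27 lies outside the interval. Of 9 measured fat body genes 0 were called by limma and 0 had an unadjusted p under 0.05, against 22.8% of all genes. Their mean level ran from 7.54 to 7.59 in the knock-out arrays and from 7.55 to 7.58 in w1118. The 2 with the smallest p were svp (log2 0.17, adjusted p = 0.338) and Lsd-1 (−0.10, 0.501). Fbp1, Fbp2, Lsp2 and Cyp6a2 were dim, with 15.8% to 25.3% of genes dimmer. The flat values of these dim genes therefore say little of the fat body.

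PH4alphaMP and PH4alphaPV, named for the embryonic mouthparts and proventriculus, were dim. PH4alphaMP read 4.37, 4.59 and 4.49 in the knock-out arrays, against 4.37, 4.19 and 4.31 in w1118, near the first quartile of the array. Its lowest knock-out value exceeded the highest w1118 value by less than the last digit given. The log2 difference was 0.19 (adjusted p = 0.28). PH4alphaPV read 5.98, 6.00 and 5.88 in the knock-out arrays, against 5.80, 5.83 and 5.68 in w1118. The groups did not overlap, and the log2 difference was 0.19 (unadjusted p = 0.0409, limma adjusted p = 0.242).

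The NE genes are the remaining named alpha subunits. Like PH4alphaPV, PH4alphaNE1 was dim, with 31.7% of genes dimmer. PH4alphaNE1 read 5.69, 5.68 and 5.68 in the knock-out arrays, against 5.96, 5.85 and 6.05 in w1118. It was the hydroxylase with all knock-out arrays below w1118, with a log2 difference of −0.27 (SE 0.08, limma adjusted p = 0.107). It passed in 1 of 13 settings, array weights (limma adjusted p = 0.0363). Without w1118 array 3 its adjusted p was 0.34. PH4alphaNE2 lay between 3.75 and 3.88 in the knock-out arrays and between 3.80 and 3.87 in w1118. PH4alphaNE3 lay between 3.63 and 3.67 in the knock-out and between 3.62 and 3.71 in w1118. Both lay under the first quartile, with 5.45% and 3.22% of genes dimmer, and their log2 differences of −0.02 and −0.01 changed sign with median centring (0.05 and 0.07).

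The collagen genes had bright probe sets, with 93.6% of genes dimmer than Col4a1 and 96.2% dimmer than vkg, and both were lower in every knock-out array without passing the test. Col4a1, the alpha1 chain of collagen IV, read 10.84, 11.02 and 11.01 in the knock-out arrays, against 11.09, 11.06 and 11.37 in w1118. Its log2 difference was −0.22 (95% interval −0.46 to 0.03, adjusted p = 0.319). The vkg gene, which encodes the alpha2 chain, read 10.99, 11.52 and 11.53 in the knock-out arrays, against 11.66, 11.66 and 11.88 in w1118. Its log2 difference was −0.38 (SE 0.15, unadjusted p = 0.0374, limma adjusted p = 0.232).

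Knock-out array 1 decided much of the size for vkg. Without it the log2 difference was −0.20 (adjusted p = 0.333). Without w1118 array 3, the highest array for both chains, it was −0.31 for vkg (adjusted p = 0.544) and −0.12 for Col4a1 (0.698). Array 1 is also the array with the largest 3′ minus 5′ difference; the part of RNA quality in its low vkg value was not tested. The chains lie next to each other on arm 2L, with 0 annotated genes between them. Within arrays, vkg minus Col4a1 was 0.15, 0.50 and 0.52 in the knock-out, against 0.57, 0.60 and 0.51 in w1118 (exact permutation p = 0.2), so the groups overlapped.

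**Figure D2:**
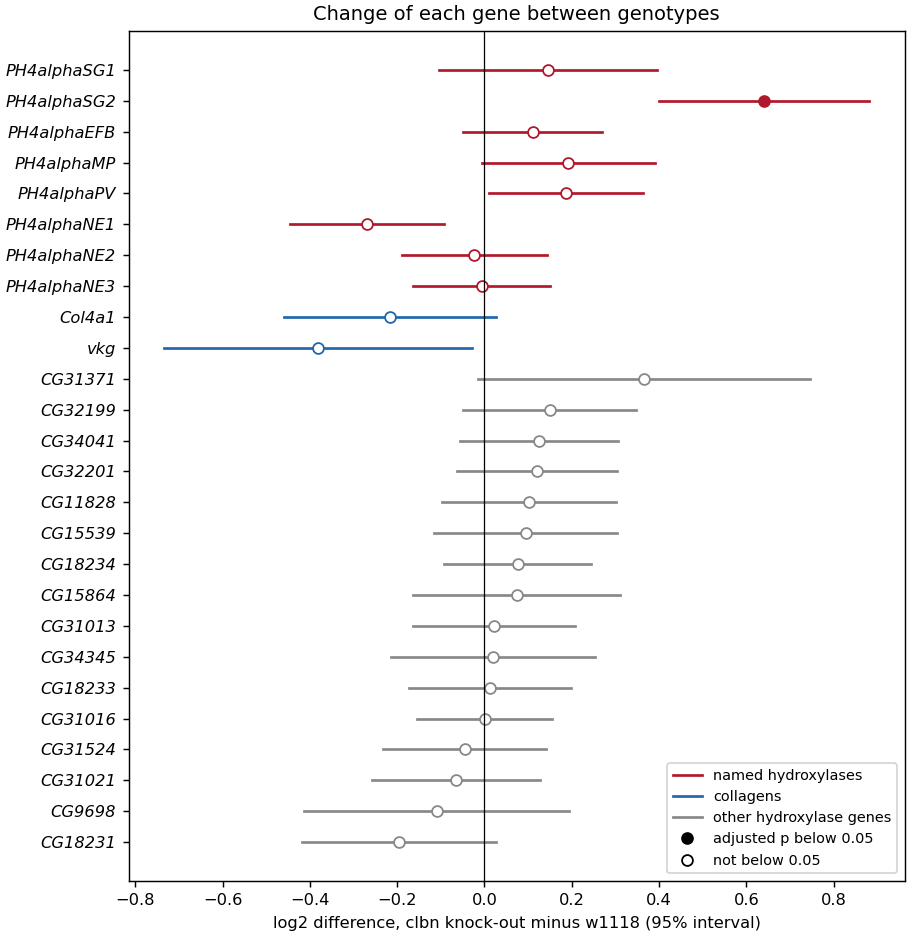
Log2 difference, clbn knock-out minus w1118, with its 95% interval from limma, for the 8 named hydroxylases (red), the 2 collagens (blue) and 16 other hydroxylase genes (grey); a filled point has an adjusted p below 0.05. PH4alphaSG2 at 0.64 is the filled point, and both collagens lie below 0.

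Each hydroxylase was then set against the 2 collagens by subtracting their mean log2 value within each array. Which chains each enzyme acts on was not tested. In whole embryos a hydroxylase and the collagens can be read from different tissues. A probe set's brightness is not comparable between genes, so the change between genotypes is read and not the level. PH4alphaSG2 shifted most, with −1.66, −2.36 and −2.21 in the knock-out arrays, against −3.21 to −2.84 in w1118. Relative to the collagens it was higher in the knock-out by 0.94 log2, with no overlap.

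Of the 8 hydroxylases, 6 had every knock-out array above every w1118 array on this relative scale, as did 44.9% of all genes other than the collagens. Since the collagens were themselves lower in the knock-out, the median shift of all other genes was 0.32, and 139 of 11980 genes shifted more than PH4alphaSG2. The subtraction moves each gene's difference by the same amount. The rank of PH4alphaSG2 and the order of the hydroxylases thus repeat the earlier result and add no evidence. The other 5 of the 6 shifted by 0.49 for PH4alphaMP, 0.49 for PH4alphaPV, 0.44 for PH4alphaSG1, 0.41 for PH4alphaEFB and 0.29 for PH4alphaNE3. The shift of PH4alphaNE3 was under the median of all genes. Against Col4a1 alone, PH4alphaSG1 overlapped between genotypes (0.36, exact p = 0.2). Knock-out array 1, with the largest 3′ minus 5′ difference, carried part of these values: without it the shift was 0.24 for PH4alphaSG1 and 0.16 for PH4alphaNE3. Without w1118 array 3 that of PH4alphaSG1 was 0.28. With all arrays and both collagens, the exact 2-sided permutation p was 0.1 for each of the 6, which is the smallest possible, so none could pass 0.05. PH4alphaNE2 shifted by 0.28 with overlap (exact p = 0.2). PH4alphaNE1 shifted by 0.03 (exact p = 1), since it was lower in the knock-out as the collagens were. All 8 values share the same collagen values, and PH4alphaNE3 had a difference of −0.01 by itself, so its shift comes from the collagen side.

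**Figure D3:**
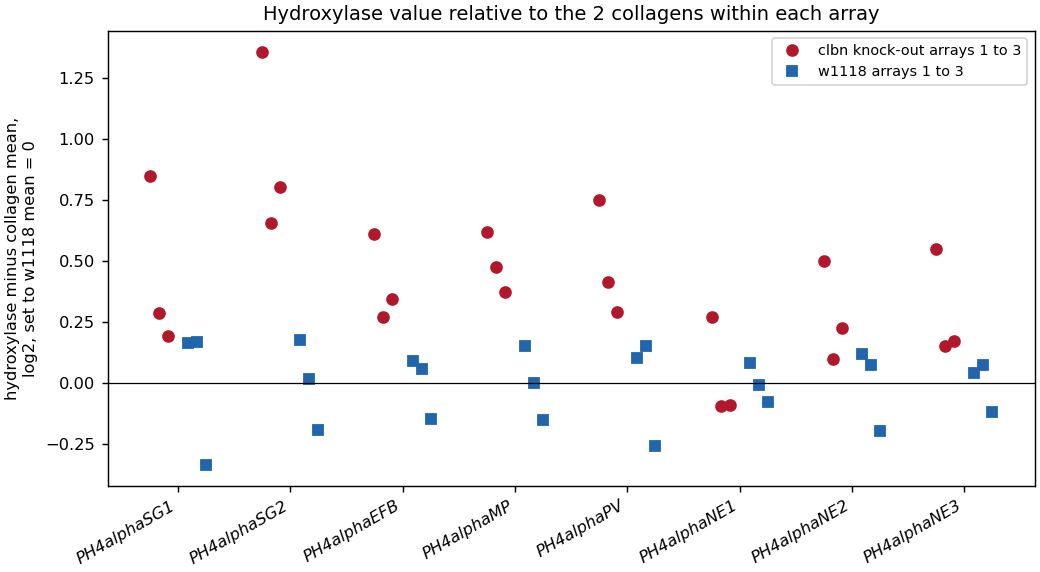
Log2 value of each hydroxylase minus the mean of Col4a1 and vkg in the same array, set so that the w1118 mean of each gene is 0. Red circles are knock-out arrays 1 to 3 and blue squares w1118 arrays 1 to 3; PH4alphaSG2 has the largest shift, and knock-out array 1 is the highest point for every gene.

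The hydroxylase genes sit close together on arm 3R. By RefSeq order, 25 measured genes run from PH4alphaEFB to PH4alphaPV, and 8 of these are the named hydroxylases and 8 are other hydroxylase genes. At least 548 measured genes lie between clbn and any named hydroxylase. PH4alphaSG2 and PH4alphaMP overlap in the annotation, and PH4alphaNE1 is the next measured gene. Whether the probes lie in the shared stretch was not analysed here. PH4alphaSG2 rose while these neighbours differed by 0.19 and −0.27 without passing the test.

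The 16 measured genes among 18 other predicted hydroxylase genes were dim, and 11 of them had means at or under the first quartile. By limma 0 of 16 were called, and 0 had an unadjusted p under 0.05. Their log2 differences ran from −0.20 to 0.37, with a median of 0.05. The largest, named after its value was seen, was CG31371, which lies between PH4alphaNE1 and PH4alphaSG1 (log2 0.37, adjusted p = 0.281, and 0.22 without knock-out array 1).

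Around the named hydroxylases, 29 other measured genes lie within 10 genes of a member. By limma 0 of 29 were called and 6 had an unadjusted p under 0.05, a share no larger than the 22.8% of all genes, and the median log2 difference was −0.01. With the replicate number as a block 2 passed. They were the digestive protease gene Jon99Fi, which precedes PH4alphaSG2 (log2 −1.52, adjusted p = 0.163 without the block and 0.0071 with it), and the serpin gene Spn100A (0.59, adjusted p = 0.08 and 0.0411). With array weights, 2 others passed, CG9717 (adjusted p = 0.0432) and Npc2g (0.0322). All 4 were named after their values were seen.

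**Figure D4:**
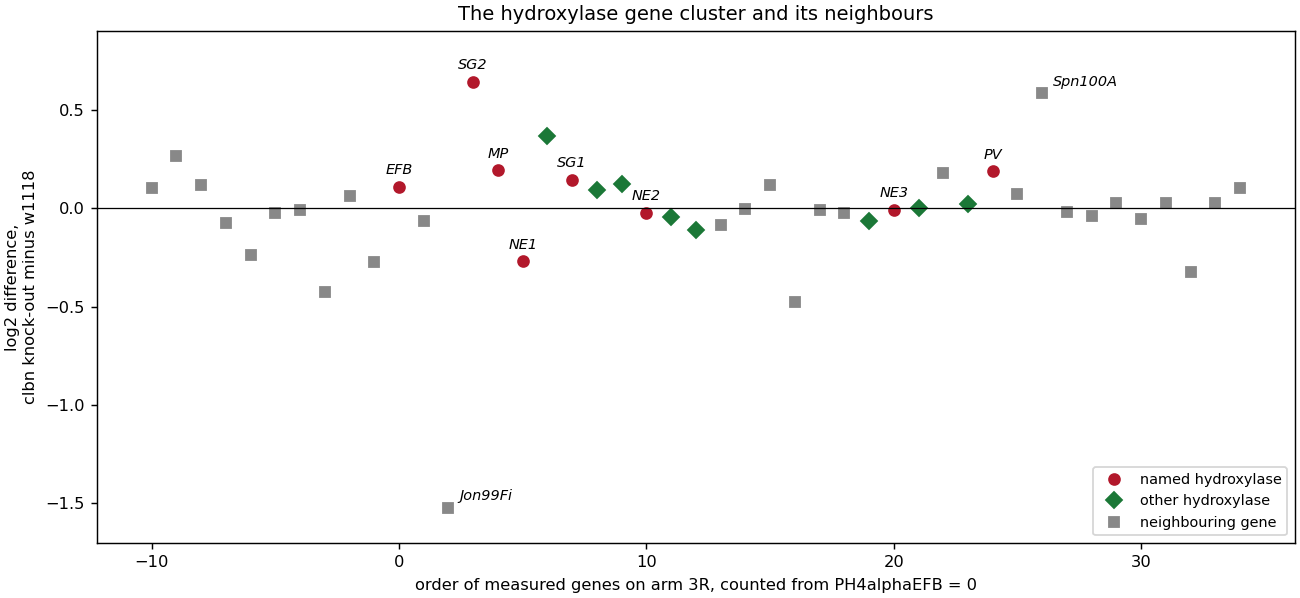
Log2 difference, clbn knock-out minus w1118, of measured genes in their order along arm 3R, counted from PH4alphaEFB. Red circles are the named hydroxylases, green diamonds other hydroxylase genes and grey squares other neighbours; PH4alphaSG2 at 0.64 stands beside Jon99Fi at −1.52 and genes close to 0.

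Collagen IV works within the basement membrane, together with laminins, nidogen, perlecan and associated proteins. Of 12 measured genes of this list 1 fell and 0 rose, where 2.63% and 1.88% of all genes did. Values below 0 were held by 10, against 44.0% of all genes, and the 2 above 0 were wb (0.04) and Ppn (0.07). An unadjusted p under 0.05 in the limma test was held by 5, against 22.8% of all genes. The median log2 difference was −0.21, against 0.02 for all genes. Glt, which encodes the basement membrane protein glutactin, read 10.17, 10.36 and 10.27 in the knock-out arrays, against 10.70, 10.67 and 10.92 in w1118. The groups did not overlap, and Glt fell 1.41-fold (log2 −0.50, SE 0.09, limma adjusted p = 0.0331). Leaving out any of the 6 arrays ended that call (adjusted p = 0.0532 to 0.11).

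Among other genes of the list, named after their values were seen, SPARC, which encodes a collagen-binding protein made with collagen IV, differed by −0.31 (unadjusted p = 0.0116, limma adjusted p = 0.128). Mp, which encodes a further collagen, multiplexin, differed by −0.51 (adjusted p = 0.207), and by −0.28 (0.283) without knock-out array 1. The list's median without that array was −0.17. The laminin genes LanA, LanB1 and LanB2 differed by −0.04, −0.07 and 0.00 (adjusted p = 0.724 to 0.982). The list's mean level was 10.31 in knock-out array 1, 10.53 and 10.51 in the other knock-out arrays, and 10.58 to 10.72 in w1118. It was thus lowest in the array in which vkg was lowest.

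Genes that fold, modify, export or crosslink collagen did not pass the test. Of 10 measured, 0 were called by limma and 2 had an unadjusted p under 0.05, with a median log2 difference of 0.00. These were Rab10, a small GTPase that directs basement membrane secretion (log2 0.17, adjusted p = 0.253), and Sec24CD, a coat protein of vesicles leaving the endoplasmic reticulum (−0.20, 0.258). Without knock-out array 1 Sec24CD differed by −0.13, Plod by −0.05 and Tango1 by −0.07. With all arrays Plod, the lysyl hydroxylase of collagen, differed by −0.10 (adjusted p = 0.594) and Tango1, the collagen export receptor, by −0.12 (0.473). Pdi, which encodes the beta subunit, gave 3.76 in the knock-out and 3.79 in w1118, under the first quartile, so this probe set says little of its level. These last 3 were named outside the rule.

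Matrix receptors and proteases likewise held 0 calls by limma among 14 measured genes, of which 1 had an unadjusted p under 0.05, and a median log2 difference of −0.03. The smallest p-values were those of the secreted protease gene AdamTS-A (log2 −0.30, adjusted p = 0.167) and stl, which encodes a related protease (0.27, 0.272).

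The co-substrates were covered by 12 measured genes of oxygen sensing, iron storage, 2-oxoglutarate metabolism and peroxide removal. Of these 1 fell and 0 rose, where 2.63% and 1.88% of all genes did. An unadjusted p under 0.05 was held by 3, against 22.8% of all genes, and 9 had values below 0, against 44.0%. The median log2 difference was −0.11, against 0.02 for all genes. Idh3b, a subunit of the mitochondrial isocitrate dehydrogenase that makes 2-oxoglutarate, read 9.44, 9.76 and 9.59 in the knock-out arrays, against 10.33, 10.38 and 10.21 in w1118. Every knock-out array was lower, and Idh3b fell 1.64-fold (log2 −0.71, SE 0.10, limma adjusted p = 0.00992). Its call was lost without w1118 array 1 (adjusted p = 0.0631). The gene lies on 3R, as the hydroxylases do. With the replicate block the peroxidase gene Gtpx passed as well (log2 0.51, adjusted p = 0.0587 without the block and 0.0461 with it). Gtpx passed in 4 of 14 settings, among them array weights (limma adjusted p = 0.0179) and leaving out knock-out array 1 (0.0447). Hph, the prolyl hydroxylase of the hypoxia pathway, named outside the rule, differed by 0.06 (adjusted p = 0.794).

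**Figure D5:**
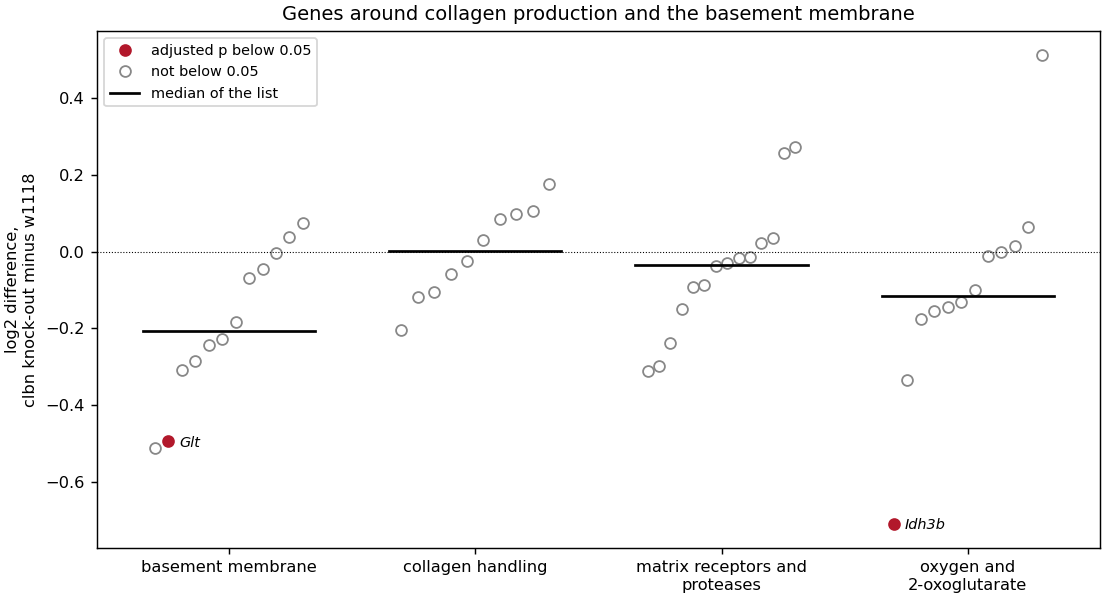
Log2 difference, clbn knock-out minus w1118, of each measured gene in 4 lists around collagen production, with the list's median as a black line; red filled points have an adjusted p below 0.05. Glt (−0.50) and Idh3b (−0.71) are the filled points, and the basement membrane list has the lowest median, −0.21.

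Haemocytes are a main source of embryonic collagen IV. Of 18 haemocyte genes, 0 were called by limma and 4 had an unadjusted p under 0.05, close to the 22.8% of all genes, with a median log2 difference of 0.00. The list's mean level ran from 8.06 to 8.20 in the knock-out arrays and from 8.08 to 8.21 in w1118. Values ran in both directions: atilla differed by −0.59 (adjusted p = 0.0628) and lz, the crystal cell regulator, by 0.33 (0.119). In 3 of the 18, eater, He and lz, the mean was at or under the first quartile, so their levels cannot be told from background. Of 13 stage markers, 1 was called and 4 had an unadjusted p under 0.05, against 4.51% and 22.8% of all genes. The called gene was the muscle gene Mlc2 (log2 −0.60, adjusted p = 0.00469). The others, named after their values were seen, were the early dorsal gene zen (−1.09, adjusted p = 0.0677), the cuticle gene Cpr49Ae (−0.52, 0.118) and the neuronal gene elav (−0.49, 0.17). The early pair-rule genes ftz and eve, also named so, differed by 0.46 (adjusted p = 0.473) and 0.58 (0.321), and by 0.21 and 0.31 without knock-out array 1. The part of embryo age in the members' differences was not tested.

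Over the 6 arrays, the genes whose values most resembled those of PH4alphaSG2 were Rpp14b (Pearson r = 0.999), grass (0.995) and mRpL4 (0.995). Rpp14b itself passed the test (log2 0.38, limma adjusted p = 0.0437), a call that leaving out any of the 6 arrays ended (0.067 to 0.147). For vkg the nearest were loh (r = 0.999), Mp (0.996) and Scgdelta (0.995). For Col4a1 they were acs, CG9864 and CG11368 (r = 0.992 to 0.993). The collagens resembled each other less, with r = 0.894, which placed Col4a1 at rank 708 for vkg and vkg at rank 556 for Col4a1. These r are descriptions over 6 arrays of 2 genotypes. Mp, like vkg, was lowest in knock-out array 1, with 8.74 there and 9.45 and 9.39 in the other knock-out arrays.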

How the data were processed

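The values were the log2 expression values that the authors deposited in the series table, 18769 probe sets and 183 controls on 6 arrays. That they are log2 was read from the values, which ran from 2.84 to 14.52. The submitters' processing notes name affy, with no version. How background was corrected and arrays were normalised was not stated, and nothing was normalised again. Of the probe sets, 13647 had 1 gene symbol in the platform annotation, which can be old, and each of 11982 genes was represented by its brightest. Gene order and chromosome arm came from the RefSeq table of Release 6 plus ISO1 MT; no coordinates are printed, since no source used here names the array's build.

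Each probe set was fitted as knock-out minus w1118 by lmFit and eBayes of limma (version 3.58.1, under R 4.3.3) without covariates, with Benjamini-Hochberg adjustment over 18769 probe sets. Folds are 2 raised to the log2 difference. Differences between probe sets within an array were compared by exact 2-sided permutation. Nothing in the labels tells whether samples sharing a genotype are separate collections, so p-values measure the spread between these samples, which may be technical; 3 arrays per genotype limit the precision. Replicates carry the numbers 1 to 3 in each genotype, and no label names a shared day. The deviations of same-numbered arrays from their group means correlated at 0.252, 0.227 and 0.39. On that ground the numbers were taken to pair the arrays in the replicate block, from the data and not from the labels. Different-numbered arrays were not compared in this way, so other pairings were not examined. The main limma fit does not use this pairing, and neither do permutation p-values given without mention of the block.

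Members and lists were chosen with earlier results of these data known. The naming rule takes all members, up to 4 called genes per list or the 2 of smallest p, called neighbours, and the 3 genes most like each collagen and each called member. Of the listed names, those with no measured gene were not analysed here. Simulated data had the real spread and 200 of 18769 probe sets changed in the knock-out against w1118 comparison. On them the fit recovered 48.7% of changes of 0.5 log2 and 88.1% of changes of 1, and 4.04% of its calls were false. The simulated arrays were independent and alike in spread. Same-numbered real arrays were correlated and knock-out array 1 stood apart, so these rates may not hold for the real arrays. Tables were made in Python 3.11.15 with pandas 2.3.3 and plots with matplotlib 3.10.9.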

Additional observations from a re-analysis of the deposited data

How the results depend on the processing

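The alternatives were quantile normalisation, median centring, 2 filters on dim probe sets, array weights, the replicate block, a variance trend, and leaving out each array. The count of 668 probe sets called became 1539 with array weights and 978 with the replicate block, and lay between 190 and 607 when 1 array was left out (357 and 344 when knock-out arrays 2 and 3 were left out, and 190 and 256 without w1118 arrays 1 and 3). The 1 member called higher, PH4alphaSG2, was called in 10 of 14 settings, and the count was 0 to 1 when an array was left out. The count of members called lower was 0, and 1 with array weights, PH4alphaNE1. Median centring raised every member's log2 difference by the same amount, to −0.14 for Col4a1 and −0.31 for vkg. The replicate block changed no member's call (PH4alphaSG2 adjusted p = 0.0113); it added Gtpx, Jon99Fi and Spn100A among the pathway and neighbouring genes. PH4alphaNE2 turned from a negative value to 0.0497 with median centring, and lay between −0.0581 and 0.00602 with 1 array left out. PH4alphaNE3 likewise turned to 0.0661 with median centring and 0.00852 with array weights, and lay between −0.024 and 0.0202 with 1 array left out. Relative to the collagens, PH4alphaNE1 turned to −0.0531 with Col4a1 alone, and lay between −0.0929 and 0.0912 with 1 array left out. The other 7 hydroxylases kept a positive relative shift in every alternative run, 0.73 to 1.08 for PH4alphaSG2 and 0.16 to 0.58 for the other 6. The cause of these changes was not tested. Averaging the probe sets of a gene gave no other value, since each member has 1. Signals near the first quartile, those of PH4alphaMP, PH4alphaNE2 and PH4alphaNE3, limit what can be said of these genes.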
